A study of Mus musculus with 15 samples.

Results

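The mouse immunoproteasome and its activator were followed in the colon of B6 and Irf1-/- mice. The 9 genes were taken by symbol: the induced catalytic subunits Psmb8, Psmb9 and Psmb10, the induced activator subunits Psme1 and Psme2, and as reference the constitutive catalytic subunits Psmb5, Psmb6 and Psmb7 and the activator Psme3. They are 9 of the 12897 genes listed in any of 3 count tables. 8 of them were analysed in all 3 tables. Psmb9 was not analysed here in the table that holds the treated Irf1-/- mice, so it has values for 12 of the 15 libraries.

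RNA was sequenced from distal colon of 15 mice in 5 groups of 3, all of strain C57BL/6 in the labels; the methods of the study give the wildtype mice as C57BL/6J. 2 groups are untreated wildtype mice, called here B6 control set 1 and B6 control set 2, and another holds untreated Irf1-/- mice, in which both copies of the gene of transcription factor Irf1 are inactivated. The other 2 groups are wildtype (B6) and Irf1-/- mice that received azoxymethane (AOM, a colon carcinogen, 7 mg/kg on day 1) and dextran sodium sulfate (DSS, an agent that injures the colon lining, 2% for 4 days from day 8 to day 11) and were killed on day 26 (D26). The labels give no age. The mice are biological replicates according to the study's design text. Libraries were depleted of ribosomal RNA, and each held between 22266607 and 22869853 counts over the listed genes.

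The proteasome is a barrel of stacked rings that cuts ubiquitin-tagged proteins into peptides. Its 3 cutting sites are made by Psmb5, Psmb6 and Psmb7 in most cells. Interferon-gamma induces Psmb8, Psmb9 and Psmb10, which replace them in newly built barrels, and this immunoproteasome supplies many of the peptides that MHC class I molecules show to T cells. Psme1 and Psme2 form the PA28 cap that opens the barrel, whereas Psme3 forms a related cap found mostly in the nucleus. Leukocytes carry immunoproteasome at rest, and gut epithelium gains it in inflammation. Irf1 is a transcription factor induced by interferon-gamma, and is known to act on Psmb8, Psmb9 and Psmb10.

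Promoter sequence is shown for 4 of the 5 induced members. In the results that follow, Psmb8, Psmb10, Psme1 and Psme2 were lower in untreated Irf1-/- mice than in B6 control set 2. Their groups did not overlap, which in this direction was so for 7.57% of all genes. The groups of Psmb9 did not overlap either, but for Psmb9 this is a description only. Psme2 had 2 windows, which were searched but are not printed. RefSeq windows of 300 bases (250 before and 50 after the annotated start, build GRCm38.p6) were found for 8 of the 9 members; Psmb7 had none in the table used. Each printed run holds bases -250 to 30 of the window, 5′ to 3′ on the strand of the gene, and capitals mark a motif match. The letters GAAANNGAAA, a core shared by many binding sites of interferon regulatory factors, were searched on both strands of the full windows.
Psmb8 promoter, chr17:34197945-34198224, plus strand: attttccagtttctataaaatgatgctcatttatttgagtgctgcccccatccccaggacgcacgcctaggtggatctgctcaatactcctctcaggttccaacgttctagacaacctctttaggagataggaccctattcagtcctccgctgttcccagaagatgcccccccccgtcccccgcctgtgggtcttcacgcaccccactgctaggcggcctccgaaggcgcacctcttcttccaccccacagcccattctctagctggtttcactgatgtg
Psmb9 promoter, chr17:34187301-34187580, minus strand: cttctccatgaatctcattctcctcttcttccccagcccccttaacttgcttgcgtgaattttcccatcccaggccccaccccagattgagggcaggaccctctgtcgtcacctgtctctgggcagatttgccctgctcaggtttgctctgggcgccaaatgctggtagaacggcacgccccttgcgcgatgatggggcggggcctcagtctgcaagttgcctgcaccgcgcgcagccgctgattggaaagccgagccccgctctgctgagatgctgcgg
Psmb10 promoter, chr8:105938363-105938642, minus strand: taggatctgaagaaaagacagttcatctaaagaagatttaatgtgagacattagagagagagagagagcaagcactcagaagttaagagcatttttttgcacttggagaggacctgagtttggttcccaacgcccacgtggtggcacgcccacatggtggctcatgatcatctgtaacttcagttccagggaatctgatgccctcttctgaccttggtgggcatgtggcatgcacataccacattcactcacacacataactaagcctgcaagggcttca
Psme1 promoter, chr14:55578244-55578523, plus strand: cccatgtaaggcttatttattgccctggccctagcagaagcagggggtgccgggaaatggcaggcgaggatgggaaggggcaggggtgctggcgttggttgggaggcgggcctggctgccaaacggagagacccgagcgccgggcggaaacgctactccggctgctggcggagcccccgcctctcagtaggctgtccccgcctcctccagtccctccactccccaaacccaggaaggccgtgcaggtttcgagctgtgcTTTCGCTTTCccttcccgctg

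The window of Psme1 held TTTCGCTTTC from base 10 to base 19, which reads as the motif on the opposite strand. Of 32851 promoter windows, 3.44% held GAAANNGAAA, so 1 match among 8 members is a description and no evidence of a site. The motif was not found in the windows of Psmb8, Psmb9, Psmb10, Psme2, Psmb5, Psmb6 and Psme3, which says only that these letters are not in those bases. Psmb9 lies head to head with Tap1, which encodes part of the peptide transporter of MHC class I loading. Their windows share 275 bases, so that most of the run printed for Psmb9 is also promoter sequence of Tap1.

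The deleted gene was checked first. Normalised CPM (counts scaled to library size and by the trimmed mean of M values over all 15 libraries) of Irf1 were 79.4, 117 and 87.6 in untreated Irf1-/- mice against 141, 128 and 130 in B6 control set 2, and 108, 123 and 100 in Irf1-/- mice at D26 against 173, 223 and 227 in B6 mice at D26. All 6 Irf1-/- libraries were below all 9 B6 libraries, but Irf1 reads remained. Which exons the allele lacks is not given in the sources used here, and these gene totals cannot be divided by exon. The tissue label was checked with marker genes: 12 epithelial markers summed to between 11500 and 17900 CPM and 6 smooth muscle markers to between 6720 and 8680 CPM in every library. Of 22 leukocyte markers, 15 were in all tables, and Cd3e, Cd3g, Cd8a, Trac, Nkg7, Gzma and Gzmb were not analysed here.

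In untreated B6 colon the members covered a wide range of levels. Levels are compared between genes only as CPM per kb of exon (union of GENCODE M21 exons). In B6 control set 2, Psmb6 had 97.7 ± 4.98 (SD, n = 3) CPM per kb and Psme2 92 ± 5.42, and these overlapped between mice. Psme1 (64.9 ± 3.91) and Psmb7 (64.4 ± 6.27) came next and also overlapped. They were followed without overlap by Psmb10 (45.2 ± 0.774) and Psmb5 (41.3 ± 2.3). Psme3 (23.6 ± 3.01) and Psmb8 (18.2 ± 3.5) overlapped, and Psmb9 was lowest at 8.97 ± 1.2 CPM per kb. The induced members were thus expressed in colon without treatment, with Psmb10 below Psmb7, Psmb8 below Psmb5 and Psmb9 below Psmb6 per kb.

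Of the induced catalytic subunits, Psmb8 and Psmb10 were called lower in untreated Irf1-/- colon than in B6 control set 2, and Psmb9 was not called. A gene was called when its fold change was at least 1.5 and its adjusted p (edgeR quasi-likelihood test, Benjamini-Hochberg over all genes tested) was under 0.01. Psmb10, the induced trypsin-like subunit, had 17.5, 20.8 and 19.7 CPM in Irf1-/- mice and 59.1, 58.4 and 60.4 CPM in control set 2. The values of each group lay close together and far from the other group. Psmb10 fell by 1.61 ± 0.08 (SE) on the log2 scale, 3.06-fold lower, with edgeR adjusted p = 1.99e-05, and was rank 1 by p among 12588 genes.

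Psmb8, the induced chymotrypsin-like subunit, had 8.13, 10.6 and 7.5 CPM in untreated Irf1-/- mice and 26.6, 36.2 and 26.1 CPM in control set 2. Replicate 2 was the highest of its group in both genotypes, and the groups did not overlap. Psmb8 fell by 1.76 ± 0.17 on the log2 scale, 3.39-fold lower, with edgeR adjusted p = 0.000691. Psmb9, the induced subunit that replaces Psmb6, had 4.04, 8.36 and 4.37 CPM in Irf1-/- mice and 11.2, 14 and 11.2 CPM in control set 2. The groups did not overlap, but replicate 2 of the Irf1-/- mice stood well above the other 2. Its log2 fold change was -1.12 ± 0.25 with edgeR adjusted p = 0.0796, so it was not called, and without that mouse it was -1.53 (adjusted p = 0.00556). The tables hold genes with at least 5 CPM in 3 libraries, and Psmb9 reached this value in all 3 B6 libraries but in 1 of 3 Irf1-/- libraries. It therefore entered the table through the B6 mice, which favours a lower Irf1-/- value, and its difference between genotypes is given as a description only. The other 8 members reached 5 CPM in every library.

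Both subunits of the PA28 cap were also lower, by less. Psme2 had 49.7, 50.1 and 49.3 CPM in untreated Irf1-/- mice and 83.8, 93.7 and 92 CPM in control set 2, and fell by 0.85 ± 0.06 on the log2 scale (1.81-fold lower, edgeR adjusted p = 0.000143). The 3 Irf1-/- values were nearly equal, with an SD of 0.805% of their mean. Psme1 had 44, 47.3 and 42.9 CPM against 67.5, 72.9 and 76.1 CPM and fell by 0.69 ± 0.07 (1.61-fold lower, edgeR adjusted p = 0.00109). Without Irf1-/- untreated replicate 1 its adjusted p was 0.0108, just past the threshold. Psme3, the nuclear cap, had 58, 60.5 and 59.6 CPM against 57.1, 59.4 and 72 CPM, and its log2 fold change was -0.08 ± 0.09 with edgeR adjusted p = 0.841. In this comparison 4 of the 9 members were called lower, against 0.318% of all genes tested, and 4 of the 8 members other than Psmb9 had groups that did not overlap with Irf1-/- lower, against 7.57% of all genes.

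The constitutive catalytic subunits gave small differences. Psmb5 had 34.3, 38.5 and 36.2 CPM in untreated Irf1-/- mice and 34.8, 38.1 and 38.6 CPM in control set 2. Psmb6 had 73.1, 79.1 and 70.8 CPM against 73.4, 79.6 and 80.8 CPM, and Psmb7 had 77, 75.1 and 74 CPM against 66.4, 77.5 and 80.1 CPM. The groups overlapped for all 3. Their log2 fold changes were -0.03 ± 0.07, -0.07 ± 0.07 and 0.01 ± 0.08, with edgeR adjusted p between 0.822 and 0.978. Against control set 1 in place of set 2, Psmb5 gave 0.16 and Psmb6 0.11, so the sign of these small differences depended on the control set. Reads of Psme2 and of Psmb5, Psmb6 and Psmb7 can be shared with near-identical copies in the mouse genome, and how such reads were counted is not given in the sources used here.

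Because whole colon was sequenced, fewer cells of a type and less RNA per cell cannot be told apart. The summed CPM of the 15 leukocyte markers lay between 436 and 543 in untreated Irf1-/- mice and between 364 and 498 in control set 2. The median log2 fold change of these markers was 0.37, 11 of 15 were positive, and none was called by edgeR, DESeq2 or the exact test, with 6 at an unadjusted p under 0.05 (10.4% of all genes). Control set 1 had leukocyte sums between 420 and 688 CPM, so the place of the untreated Irf1-/- mice depended on the control set. Of the 12 epithelial markers 6 were negative, with a median log2 fold change of 0.01. By edgeR 0 of them were called, whereas DESeq2 and the exact test each called 1, Muc2, higher at 0.62 (edgeR adjusted p = 0.0314). The sum of the 12 markers lay between 14100 and 14200 CPM in Irf1-/- mice and between 11500 and 14300 CPM in control set 2. The part of these markers in the result was not tested. The median over all 12588 genes was 0 to 2 decimals.

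**Figure D1:**
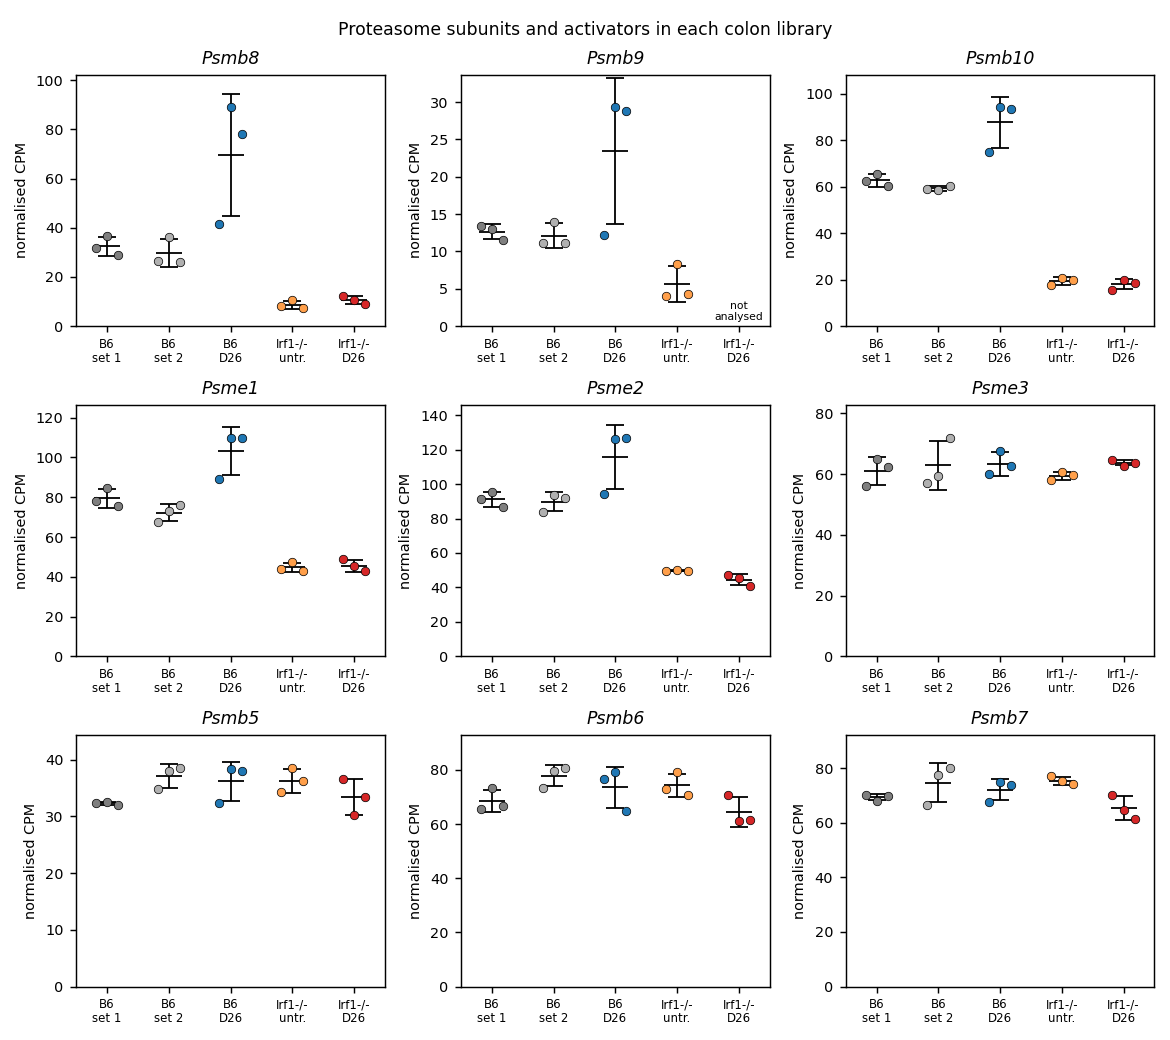
Normalised CPM (linear axes from 0) of the 9 members in each library, by group (untr., untreated); points are mice in order of replicate number, and bars are the mean and SD of 3 mice. The 6 Irf1-/- libraries of Psmb8 lie between 7.5 and 12.4 CPM, below all 9 B6 libraries (26.1 to 89), whereas the Psmb5 values of both genotypes overlap.

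AOM/DSS treatment of B6 mice was compared with control set 1 to ask how wildtype colon responds before tumors form. The 5 induced members had positive log2 fold changes between 0.35 and 1.11, but none met the call. Psmb8 had 41.7, 89 and 78.3 CPM at D26 and 31.8, 36.7 and 28.9 CPM in control set 1. All treated mice were above all untreated ones, but D26 replicate 1 was much nearer to the controls than the other 2. The log2 fold change was 1.11 ± 0.24 with edgeR adjusted p = 0.0319.

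Psmb9 had 12.2, 29.3 and 28.8 CPM at D26 and 13.4, 13 and 11.6 CPM in control set 1. D26 replicate 1 lay within the control range and the other 2 were above it. Its log2 fold change was 0.90 ± 0.29 with edgeR adjusted p = 0.0812. Psmb10 had 75.1, 94.1 and 93.6 CPM against 62.4, 65.5 and 60.2 CPM, with a log2 fold change of 0.49 ± 0.10 and edgeR adjusted p = 0.0274. Psme1 had 89.2, 110 and 110 CPM against 78.3, 84.7 and 75.4 CPM (0.38 ± 0.10, edgeR adjusted p = 0.0499), and Psme2 had 94, 126 and 127 CPM against 91.6, 95.4 and 86.6 CPM (0.35 ± 0.12, edgeR adjusted p = 0.0925).

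Of the 9 members, 0 were called higher or lower by edgeR, 5 had an unadjusted p under 0.05, and DESeq2 and the exact test each called 1, Psmb8. Of all genes, 29.5% had an unadjusted p under 0.05 and 0.0316% were called higher by edgeR. Few genes thus met the call used here in this comparison. At the same thresholds the paper reports many more genes for it, from its own test. Groups without overlap and higher at D26 were seen for 3 members, Psmb8, Psmb10 and Psme1, against 17.2% of all genes. In each of the 5 induced members D26 replicate 1 was the lowest of its group. Without that mouse Psmb8 (1.37, edgeR adjusted p = 0.00182), Psmb9 (1.21, 0.00293) and Psmb10 (0.59, 0.00829) were called higher. Over all alternatives run, their log2 fold changes lay between 0.90 and 1.37, 0.68 and 1.21, and 0.32 and 0.59. That mouse is singled out because it was lowest for these same genes, so the calls without it are a description only. The same mouse was lowest for Irf1 (173, 223 and 227 CPM), Tap1 (33.9, 85.4 and 70.3 CPM) and Nlrc5, the activator of MHC class I genes (9.18, 33.4 and 22.3 CPM). The summed leukocyte markers lay between 569 and 826 CPM at D26 and between 420 and 688 in control set 1. Of 9 listed interferon response genes outside the proteasome, 7 were in all tables. They summed to between 209 and 447 CPM at D26, against 199 to 211 CPM. The epithelial markers summed to between 13400 and 17900 CPM at D26 against 12000 to 12600 CPM. Of the 12 markers 9 were positive, with a median log2 fold change of 0.15. They went opposite ways, from Car1 at -1.01 and Slc26a3 at -0.65 to Muc2 at 1.68. By edgeR 0 were called, whereas DESeq2 and the exact test each called 3, Car1, Slc26a3 and Muc2. An unadjusted p under 0.05 by edgeR was seen for 6 of 12, against 29.5% of all genes. The part of these in the result was not tested. The constitutive members and Psme3 had log2 fold changes from 0.06 to 0.17 with edgeR adjusted p from 0.246 to 0.671.

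The same treatment in Irf1-/- mice gave no call. Psmb8 had 12.4, 10.5 and 9.06 CPM at D26 against 8.13, 10.6 and 7.5 CPM untreated, and the groups overlapped (log2 fold change 0.29 ± 0.17, edgeR adjusted p = 0.424). Psmb10 had 15.7, 19.7 and 18.6 CPM against 17.5, 20.8 and 19.7 CPM (-0.10 ± 0.12, edgeR adjusted p = 0.715). Psme1 had 48.8, 45.2 and 42.7 CPM against 44, 47.3 and 42.9 CPM (0.03 ± 0.08, edgeR adjusted p = 0.888). Psme2 had 47.4, 45.4 and 41 CPM against 49.7, 50.1 and 49.3 CPM (-0.15 ± 0.07, edgeR adjusted p = 0.299), so that all treated mice were slightly below all untreated ones.

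Of the 8 members tested, edgeR, DESeq2 and the exact test called 0, and 2 had an unadjusted p under 0.05, Psmb6 and Psmb7, both lower at D26 (log2 fold change -0.20 each). Of all genes, 18.6% had an unadjusted p under 0.05 and 0.252% were called in either direction. Groups did not overlap for 3 of the 8 members (Psme2 and Psmb7 lower, Psme3 higher by 0.10), against 25.1% of all genes. The leukocyte markers summed to between 703 and 731 CPM in treated and 436 to 543 CPM in untreated Irf1-/- mice. Of the 15 markers 14 were positive, with a median log2 fold change of 0.56, and 8 had an edgeR adjusted p under 0.05. An unadjusted p under 0.05 by edgeR was seen for 14 of 15, Cd8b1 at -0.46 among them, against 18.6% of all genes. By edgeR 0 met the call, by DESeq2 5 and by the exact test 6. Of the epithelial markers 6 of 12 were negative, with a median of -0.04. The part of these markers in the result was not tested.

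Whether the responses of the 2 genotypes differ was tested directly, as the change in Irf1-/- mice minus the change in B6 mice on the log2 scale. The difference was -0.82 ± 0.34 for Psmb8 (edgeR unadjusted p = 0.0304, adjusted p = 0.243), -0.58 ± 0.15 for Psmb10 (0.00197 and 0.107), -0.50 ± 0.14 for Psme2 (0.0043 and 0.125) and -0.35 ± 0.13 for Psme1 (0.0165 and 0.198). All were negative, and none met the call. The constitutive subunits were negative too, with -0.28 ± 0.13 for Psmb5, -0.31 ± 0.13 for Psmb6 and -0.26 ± 0.09 for Psmb7, whereas Psme3 gave 0.05 ± 0.10. The B6 reference was control set 1, and set 2 was higher than set 1 by 0.20, 0.19 and 0.11 for these 3 subunits. Over the alternatives run, their differences lay between -0.36 and -0.08, -0.39 and -0.12, and -0.48 and -0.15. Those of the 4 induced members tested lay between -1.08 and -0.22. By edgeR 0 of 8 members were called, 7 had an unadjusted p under 0.05 and DESeq2 called 0, while 16.9% of all genes had an unadjusted p under 0.05 and 0.016% of all genes were called in either direction. A different response of the immunoproteasome in the 2 genotypes was therefore not established with 3 mice per group.

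At D26 the induced members tested were lower in Irf1-/- than in B6 colon, by 2.28-fold to 6.61-fold. These folds are larger than those of untreated mice, but the test of different responses above met no call. Psmb8 had 12.4, 10.5 and 9.06 CPM in Irf1-/- mice and 41.7, 89 and 78.3 CPM in B6 mice, and fell by 2.72 ± 0.27 on the log2 scale (6.61-fold lower, edgeR adjusted p = 0.00209). Psmb10 had 15.7, 19.7 and 18.6 CPM against 75.1, 94.1 and 93.6 CPM and fell by 2.30 ± 0.12 (4.91-fold lower, edgeR adjusted p = 0.000126). Even the lowest B6 mouse was well above the highest Irf1-/- mouse for both genes. Psme2 had 47.4, 45.4 and 41 CPM against 94, 126 and 127 CPM and fell by 1.39 ± 0.13 (2.62-fold lower, edgeR adjusted p = 0.00138). Psme1 had 48.8, 45.2 and 42.7 CPM against 89.2, 110 and 110 CPM and fell by 1.19 ± 0.11 (2.28-fold lower, edgeR adjusted p = 0.00112).

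Of 8 members tested, 4 were called lower in Irf1-/- mice at D26, against 0.312% of all genes, and the same 4 had groups that did not overlap, against 14.5% of all genes. Psmb5, Psmb6, Psmb7 and Psme3 had log2 fold changes of -0.13 ± 0.11, -0.21 ± 0.10, -0.16 ± 0.09 and -0.01 ± 0.08 with edgeR adjusted p from 0.27 to 0.963. Without Irf1-/- D26 replicate 2 the adjusted p of Psmb8, Psme1 and Psme2 rose to 0.0208, 0.0132 and 0.0135 and only Psmb10 was called. Psmb8 also missed the threshold without B6 D26 replicate 3 (0.0129), Irf1-/- D26 replicate 1 (0.0119) or Irf1-/- D26 replicate 3 (0.0137), with log2 fold changes from -2.85 to -2.62. The leukocyte markers summed to between 703 and 731 CPM in Irf1-/- and 569 to 826 CPM in B6 mice at D26, with a median log2 fold change of 0.11. Of the epithelial markers 11 of 12 were negative, as the induced members were, with a median of -0.23, from Krt20 at -0.54 to Car1 at 0.58. Of these 12 markers, 6 had an unadjusted p under 0.05 (22% of all genes) and 0 were called by edgeR, DESeq2 or the exact test. Their sum lay between 13500 and 14500 CPM in Irf1-/- and between 13400 and 17900 CPM in B6 mice. The part of these markers in the result was not tested.

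**Figure D2:**
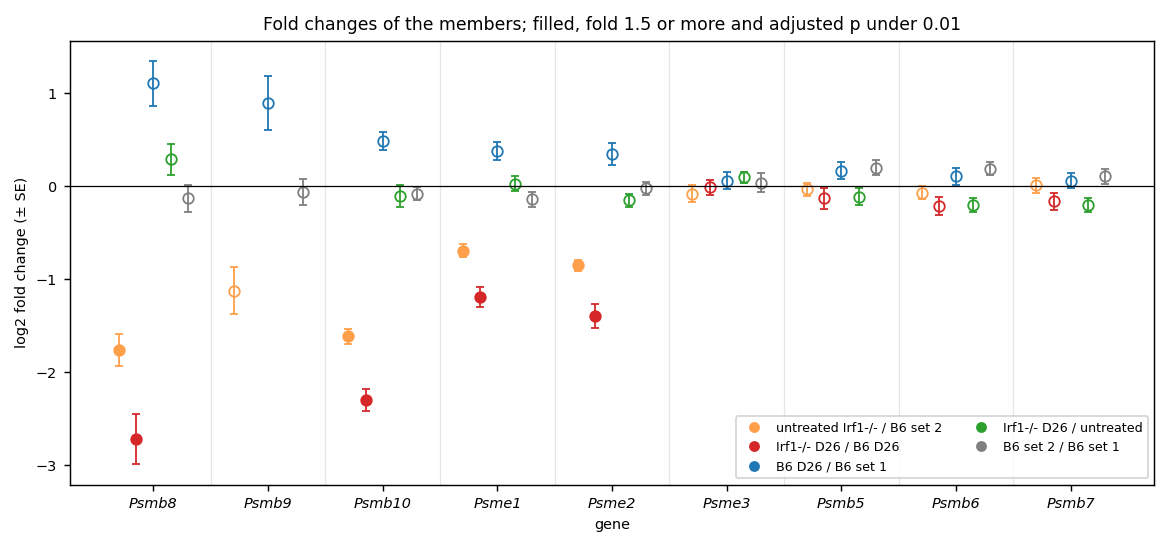
Log2 fold change ± SE of each member (x axis) in 5 comparisons of 3 mice with 3 mice, from edgeR; filled points met the call and open ones did not. The induced members lie between -2.72 and -0.69 in the comparisons of Irf1-/- with B6 mice, and Psme3, Psmb5, Psmb6 and Psmb7 lie between -0.21 and 0.20 in every comparison.

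Each induced catalytic subunit was then set against the constitutive subunit whose place it takes, as the ratio of their counts per kb of exon within a library, which needs no scaling between libraries. The ratio of Psmb8 to Psmb5 lay between 0.497 and 0.622 in control set 1 and 0.373 and 0.525 in control set 2. In untreated Irf1-/- mice it lay between 0.114 and 0.152. At D26 it lay between 0.714 and 1.28 in B6 and between 0.149 and 0.191 in Irf1-/- mice. The B6 mice at D26 had 0.714, 1.28 and 1.14, and the ratio reached 1 in no other group. Its absolute value depends on the GENCODE M21 exon lengths used, whereas the submitters used build mm9. A ratio of 1 is therefore no exact mark of equal levels.

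The ratio of Psmb10 to Psmb7 showed the same order of groups. It lay between 0.763 and 0.852 in control set 1, 0.666 and 0.787 in control set 2, and 0.984 and 1.12 in B6 mice at D26. In Irf1-/- mice it lay between 0.201 and 0.245 untreated and 0.199 and 0.27 at D26. The ratio of Psmb9 to Psmb6 was the smallest, between 0.0818 and 0.121 in the 6 untreated B6 mice, 0.0327 and 0.0624 in untreated Irf1-/- mice, and 0.0941 and 0.262 in B6 mice at D26.

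Genotype was tested by permuting the genotype labels within the untreated mice (3 Irf1-/- and 6 B6) and within the D26 mice (3 and 3). Averaged over the 2 states, the log2 ratio of Psmb8 to Psmb5 was -2.22 in Irf1-/- relative to B6 mice, 4.65-fold lower (exact two-sided permutation p = 0.0006, adjusted over the 3 ratios 0.00089). That of Psmb10 to Psmb7 was -1.93, 3.82-fold lower (exact permutation p = 0.0006, adjusted 0.00089), and both p-values are the smallest that 1680 regroupings can give. The difference was -1.90 untreated and -2.54 at D26 for the first, and -1.73 and -2.14 for the second. For Psmb9 to Psmb6 the difference in untreated mice was -1.25, 2.38-fold lower, which is given without a p because Psmb9 entered the table of untreated genotypes through the B6 mice. For Psmb8 to Psmb5 and for Psmb10 to Psmb7, the highest of the 6 Irf1-/- mice was under the lowest of the 9 B6 mice. For Psmb9 to Psmb6, the 3 untreated Irf1-/- mice were under the 9 B6 mice, which is a description only. The denominators overlapped between the genotypes and lay, over all libraries, between 30.3 and 38.6 CPM for Psmb5, 61 and 80.8 for Psmb6 and 61.3 and 80.1 for Psmb7.

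**Figure D3:**
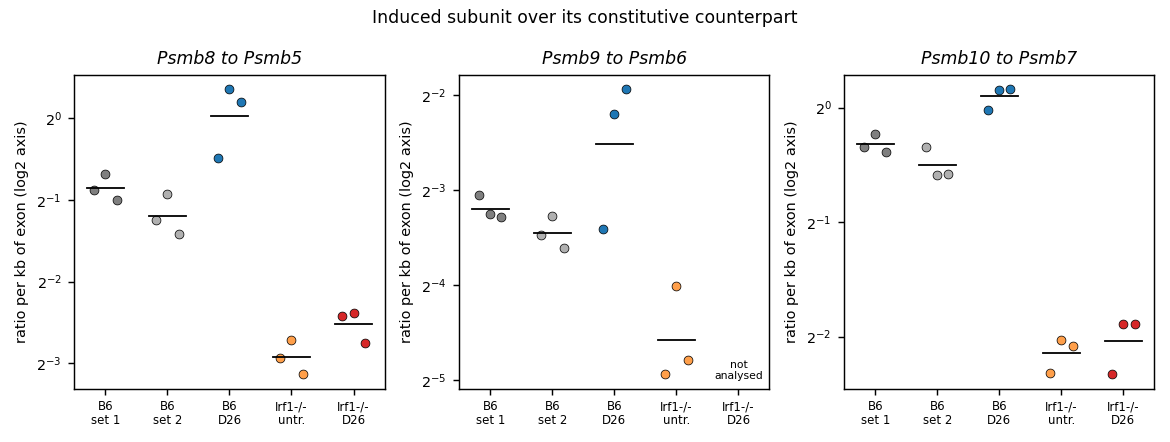
Ratio of each induced catalytic subunit to its constitutive counterpart, in counts per kb of exon on a log2 axis, in each library by group (untr., untreated); points are mice and lines are geometric means. For Psmb8 to Psmb5 and for Psmb10 to Psmb7, the 6 Irf1-/- libraries lie at or below 0.27 and the 9 B6 libraries at or above 0.373.

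The rest of the proteasome gave no call. In untreated Irf1-/- against control set 2, 0 of 11 structural subunits of the 20S barrel, 0 of 18 subunits of the 19S cap and 0 of 10 assembly factors, other activators and inhibitors were called by edgeR, DESeq2 or the exact test, with 2, 0 and 2 at an unadjusted p under 0.05. Their median log2 fold changes were -0.10, -0.02 and 0.01, with 10 of 11 barrel subunits negative. The most extreme was Psmg4, an assembly chaperone, at -0.44. Of all genes, 10.4% had an unadjusted p under 0.05 by edgeR and 49.2% were negative. At D26 the same lists (11, 18 and 9 tested) again held 0 called genes by any of the 3 tests, with 4, 4 and 1 at an unadjusted p under 0.05. Their medians were -0.15, -0.09 and -0.04, against -0.01 over all genes, with again 10 of 11 barrel subunits negative. In this comparison 22% of all genes had an unadjusted p under 0.05 by edgeR and 51.5% were negative. Psme4, which encodes another cap, had the highest value of its list at 0.36 ± 0.11 (edgeR adjusted p = 0.113).

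Genes that supply peptides to MHC class I moved in part with the induced members. In untreated Irf1-/- against control set 2, 3 of 9 were called lower: Tapbp (tapasin, -1.05 ± 0.07, edgeR adjusted p = 0.000133), Tap2 (-0.92 ± 0.08, 0.000373) and Erap1 (a peptide-trimming enzyme, -0.90 ± 0.07, 0.000184). At D26, Tapbp (-1.37 ± 0.11, edgeR adjusted p = 0.000614) and Tap2 (-1.37 ± 0.14, 0.00313) were called lower, whereas Erap1 (-0.63 ± 0.13) had an adjusted p of 0.0479. Of all genes, 0.318% were called lower in untreated mice and 0.312% at D26. All 9 peptide supply genes were negative in untreated mice, with a median of -0.20, against 49.2% of all genes. At D26 6 of 9 were negative, with a median of -0.63, against 51.5% of all genes. Tap1, the head-to-head neighbour of Psmb9, had 22.7, 36.3 and 22.9 CPM in untreated Irf1-/- mice and 30, 38.8 and 25.6 CPM in control set 2, and the groups overlapped (log2 fold change -0.21 ± 0.19, edgeR adjusted p = 0.811). At D26 Tap1 had 28.8, 44 and 24.9 CPM in Irf1-/- mice and 33.9, 85.4 and 70.3 CPM in B6 mice, and the groups again overlapped (-0.97 ± 0.32, edgeR unadjusted p = 0.0139, adjusted p = 0.132).

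Of the 9 listed transcription regulators of these genes, Irf1 included, 0 were called by edgeR in either genotype comparison. By edgeR 2 had an unadjusted p under 0.05 untreated and 3 at D26, against 10.4% and 22% of all genes. DESeq2 and the exact test called 0 untreated and 1 at D26, which was Irf1. Nlrc5 lay between 9.42 and 20 CPM in untreated Irf1-/- mice and between 7.9 and 14.2 CPM in control set 2, and the groups overlapped (log2 fold change 0.38 ± 0.29, edgeR adjusted p = 0.741), and gave -0.05 ± 0.42 at D26. Irf1 itself gave -0.49 ± 0.12 untreated and -0.93 ± 0.13 at D26 (edgeR adjusted p = 0.128 and 0.0117). Of 7 interferon response genes tested outside the proteasome, 5 were negative in untreated Irf1-/- mice (median -0.51) and 7 at D26 (median -0.86). By edgeR 1 of them was called lower in each comparison, Gbp2 (-2.38 and -3.29), against 0.318% and 0.312% of all genes.

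**Figure D4:**
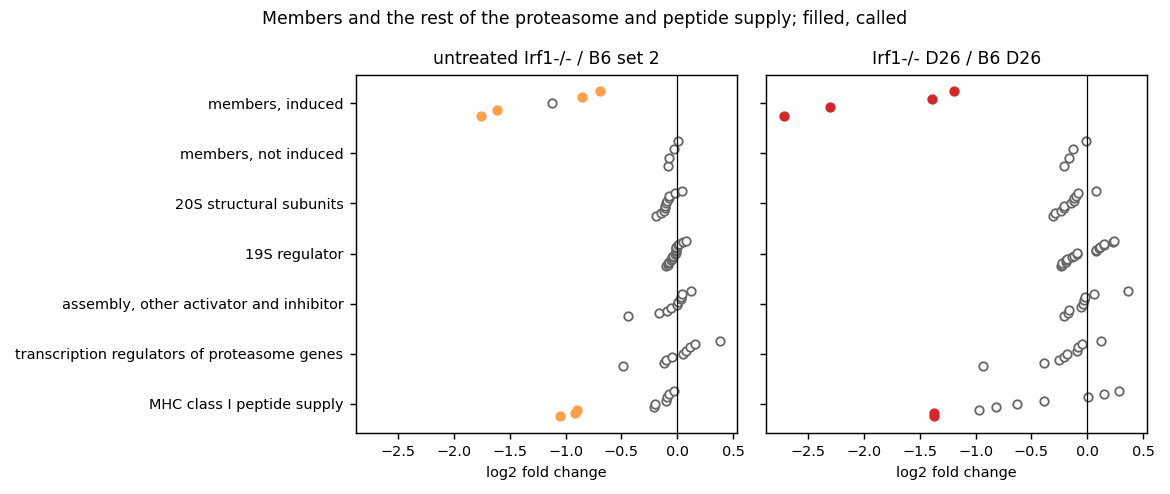
Log2 fold change (x axis, 1 scale for both panels) of the members and of 5 lists of related genes, 1 point per gene, in untreated mice (left) and at D26 (right); filled points were called. The induced members lie at or below -0.69, the called MHC class I peptide supply genes between -1.37 and -0.90, and the 20S, 19S and assembly genes between -0.44 and 0.36.

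The 2 sets of untreated B6 mice were compared to see how far such controls differ. Of 9 members 0 were called by edgeR, DESeq2 or the exact test, 2 had an unadjusted p under 0.05 (Psmb5, 0.20 ± 0.08, and Psmb6, 0.19 ± 0.07 in set 2 over set 1), as 17.2% of all genes did, and 0.0644% of all genes were called in either direction. Groups did not overlap for 3 of 9 members against 21.4% of all genes. The induced members gave log2 fold changes from -0.14 to -0.02. The leukocyte markers were lower in set 2, with 14 of 15 negative and a median of -0.49, although edgeR called none, DESeq2 2 and the exact test 1, with 5 at an unadjusted p under 0.05.

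Over the 15 libraries the induced members varied together. The correlation of log2 CPM between Psmb8 and Psme1 was 0.99, between Psmb8 and Psmb10 0.95 and between Psme1 and Psme2 0.98. With the group means removed, these were 0.87, 0.48 and 0.92, so part of the likeness lies between mice of the same group. They are descriptions over libraries that share groups. Between Psmb8 and its counterpart Psmb5 the correlation was 0.20, and 0.72 with the group means removed.

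The genes outside the list whose pattern was most like the mean of Psmb8, Psmb10, Psme1 and Psme2, by Pearson's r over 15 libraries and 12362 genes, were AW112010 (0.99), Tapbp (0.99), Gbp2 (0.99), Uba7 (0.98) and Tap2 (0.98). Gbp2 encodes an interferon-inducible GTPase and Uba7 the enzyme that activates Isg15. AW112010 averaged 50.2 ± 2.33 CPM in control set 1, 38.1 ± 1.89 in control set 2, 11.5 ± 0.788 in untreated Irf1-/- mice, 77.1 ± 20.4 in B6 mice at D26 and 13.6 ± 0.836 in Irf1-/- mice at D26. Without the libraries of B6 at D26, 3 of these 5 were among the 5 most alike. For the constitutive members and Psme3 the most alike were Fkbp4 (0.94), Hist3h2a (0.92), Tkt (0.91), Gipc2 (0.90) and Hist1h2bc (0.88).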

How the data were processed

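RNA from distal colon was measured by stranded, ribosomal RNA-depleted sequencing (50 bp paired-end reads). The submitters' processing notes name TopHat2 2.0.9, Bowtie 1.0.0, featureCounts, edgeR and build mm9; strand settings and the handling of reads with several matches are not given in the sources used here. The authors deposited 3 tables of raw read counts per gene, limited to genes with at least 5 CPM in 3 libraries. The CPM, log2 expression and log2 fold change, p-value and dispersion score columns that the authors deposited beside the counts were not used; the last 3 kinds hold the authors' own comparisons. Psmb9 was not analysed here in 1 table, so its ratio covers untreated mice only, and its p is not given, unlike the design fixed for all 3 ratios.

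Counts were fitted for each comparison with its own groups in edgeR 4.0.16 (R 4.3.3; trimmed mean of M values, quasi-likelihood test), which was tested on simulated data. Genes were called at a fold change of 1.5 or more and an adjusted p under 0.01, the thresholds of the study. The interaction used control set 1 for B6. Ratios were tested by exact permutation (Python 3.11.15). The members, gene lists and markers were chosen with earlier results of these data known. All members were named in every comparison, with list genes of the smallest p and the 5 genes of the highest r; Tap1, Nlrc5 and Psmg4 were named beside them after their values were seen. Member counts per library ran from 91 to 2897, a counting error of 10.5% to 1.86%. Alternatives included DESeq2 1.42.0, other scaling and filters, GC content correction, other control sets, a replicate block and leaving out each mouse.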

Additional observations from a re-analysis of the deposited data

How the results depend on the processing

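Over the alternatives run, 4 of 9 members called lower in untreated Irf1-/- mice became 3 to 5. Psmb9 was called under DESeq2, the exact test and without Irf1-/- replicate 2. It entered its table through the B6 mice, which favours a lower Irf1-/- value, so its calls are a description only. Of the 8 members at D26, 4 were called lower, and 1 with the replicate block, 1 with the block and GC correction, and 1 to 4 when single mice were left out; with the block the log2 fold changes were -2.67 (Psmb8), -1.19 (Psme1) and -1.38 (Psme2). Same-numbered mice of 2 groups correlated between -0.22 and 0.25 in their deviations from the group means. Mice of different numbers were not compared in this way, so whether the numbers pair the mice was not tested. In treated B6 mice 0 members were called higher, but 1, Psmb8, under DESeq2, the exact test, 1 fit of all 15 libraries, an adjusted p under 0.05 or both control sets, and 0 to 3 when single mice were left out. The block changed no other count of calls. The cause of these changes was not tested.

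The ratio of Psmb9 to Psmb6 was -1.25, and -1.38 with control set 1 alone, -1.12 with set 2 alone and -1.12 in pairs of the same number (replicate block), given as descriptions because Psmb9 entered its table through the B6 mice. The other ratios lay between -2.34 and -2.13 for Psmb8 to Psmb5 and between -1.98 and -1.86 for Psmb10 to Psmb7.

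Only uncalled members with small values changed sign. Untreated by genotype, Psmb5 gave 0.16 and Psmb6 0.11 against control set 1, and 0.06 and 0.02 against both sets; with single mice left out Psmb5 lay between -0.08 and 0.01, Psmb7 between -0.06 and 0.06, and Psme3 between -0.15 and 0.02. In treated B6 mice Psmb5 gave -0.02, Psmb6 -0.07 and Psmb7 -0.04 against control set 2, and Psmb5 -0.00 with block and GC correction. In treated Irf1-/- mice Psme1 gave -0.00 with GC correction, -0.01 with block and GC, and -0.02 to 0.07 with single mice left out. At D26 by genotype Psme3 gave 0.00 with DESeq2's size factors or test, 0.01 in 1 fit of all libraries, and 0.02 with GC correction, alone or with the block, where Psmb5 gave 0.02 too. Between control sets Psme2 lay between -0.05 and 0.03 and Psme3 between -0.07 and 0.11 with single mice left out. The exact test was not run for the difference of responses.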

Other observations

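Psmb9 and its head-to-head neighbour Tap1 varied together between mice of the same group. With the group means removed, the correlation of their log2 CPM was 0.94 over 12 libraries. Over the same 12 libraries Psmb9 was nearly as close to members that are not its neighbours, at 0.92 for Psmb8, 0.88 for Psmb5 and 0.87 for Psmb10. In untreated Irf1-/- mice replicate 2 was the highest for both genes, with 8.36 CPM for Psmb9 and 36.3 CPM for Tap1. The points share libraries and groups, so these values are a description.

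Psmb11, which encodes a catalytic subunit known from the thymus cortex, was chosen after its values were seen. It had 51.8 to 90.3 CPM over the 15 libraries and at least 1174 counts in each. Its mean was 67.1 ± 4.2 CPM (SD, n = 3) in control set 1, 78.7 ± 9.99 in control set 2, 75.3 ± 0.68 in untreated Irf1-/- mice, 57.7 ± 6.8 in B6 mice at D26 and 62.6 ± 9.7 in Irf1-/- mice at D26. Where in the gene these reads lie was not analysed here.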
